A study of Mus musculus with 4 samples.

Results

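The collagen genes are described here as they appeared in single-nucleus ATAC-seq (snATAC-seq) of mouse inguinal white adipose tissue (iWAT). Members were all protein-coding genes of the GENCODE mm10 annotation whose symbol is Col, a number, the letter a and a number, which gave 44 genes of 21951. All 44 carried at least 1 of the 189598 peaks on the gene body or within 2 kb upstream of the gene start, 476 peaks in all. The number of peaks per gene ran from 1 to 37 with a median of 7. Of these peaks, 365 lay inside introns, 77 covered an exon and an intron, 21 covered the gene start and 13 lay upstream.

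Collagens are secreted proteins built from trimers of alpha chains, each chain from its own gene, and together they make up most of the extracellular matrix. Fibrillar chains form the fibers of connective tissue, type IV chains form the sheet of the basement membrane that wraps every adipocyte and every vessel, type VI chains form beaded microfibrils around adipocytes, and the remaining classes decorate fibrils, link basement membranes to fibrils or sit in the plasma membrane. In fat, fibroblast-like progenitors are known for fibrillar collagens and adipocytes for the type IV and type VI collagens that surround them.

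The tissue came from 21 male C57BL/6 mice, 8 weeks old and acclimated for 14 days, in 7 groups of 3. The control group was kept at room temperature, 22 °C, without treatment (day0RT). The others were housed at 6.5 °C for 1, 3 or 7 days (day1C, day3C, day7C) or were given the β3-adrenergic agonist CL-316,243 at 1 mg/kg at room temperature over the same days (day1CL, day3CL, day7CL). All mice were wild type, and each nucleus had been assigned by the authors to a mouse and to 1 of 12 clusters. The matrix held 32552 nuclei, 1111 to 2021 per mouse. Entries were 0 or 1, so a count is a nucleus with reads in a peak, and counts of a mouse ran from 1340376 to 6916698. Counts were summed over the peaks of a gene within each mouse and cluster, only sums over at least 10 nuclei were used (223 libraries), and levels are given as CPM, counts scaled to a common library size. Accessibility is not transcription, and a gene with more peak sequence collects more counts, so levels of different genes are compared only per kb of peak.

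Cluster names were checked against marker genes. Summed markers of adipocytes reached 1958 CPM in white and 1785 CPM in beige adipocytes against 198 to 489 CPM in the other clusters, highest there in the vascular endothelial cluster. The beige list (Ucp1, Cidea, Dio2, Ppargc1a) reached 443 CPM in beige adipocytes, 232 CPM in white adipocytes and 239 CPM in the cluster labelled VSMC. Endothelial markers were at 720 CPM in the vascular endothelial cluster (270 to 1136 CPM over its libraries) against 140 to 488 CPM elsewhere, highest there in CD4 T cells. The progenitor list (Pdgfra, Cd34, Ly6a, Ebf2, Dpp4) was at 936 CPM in APC1 and at 248 CPM in APC2, below its level in white adipocytes (525.98 CPM), whereas markers of mural cells and smooth muscle were at 918 CPM in APC2 and at 349 CPM in APC1. Cd34, for example, was at 92.3 CPM in APC1 and 4.42 CPM in APC2, and Acta2 at 31.9 and 113 CPM. The cluster labelled VSMC carried 272 CPM of the mural list and 1312 CPM of skeletal muscle markers, which were at 67 to 194 CPM elsewhere. The labels APC2 and VSMC therefore stand here for clusters and not for checked cell types, and results against progenitors are also given against APC1 and APC2 alone, comparisons added after the data were seen. Of the nuclei, 8739 shared a barcode with a nucleus of another mouse, always one of the same treatment and number on another day, and 21.5% of such pairs fell in the same cluster against 20.7% from the cluster shares alone. How far this touches the groups was not tested.

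Collagen genes took the largest mean share of accessible counts in APC1 and APC2. They made up 0.444% ± 0.0594 (SD, n = 20 mice) of gene counts in APC1, 0.370% ± 0.0324 (n = 19) in APC2, 0.290% ± 0.0127 (n = 21) in white adipocytes and 0.251% ± 0.0230 (n = 19) in beige adipocytes. Vascular endothelial cells (VEC) were at 0.226% ± 0.0560 (n = 15) and the VSMC cluster at 0.146% ± 0.0204 (n = 10). The 6 immune clusters lay between 0.0551% in B cells and 0.0945% in dendritic cells. The single libraries of APC1 (0.258 to 0.539%) and APC2 (0.306 to 0.420%) overlapped, as did those of white (0.265 to 0.316%) and beige adipocytes (0.193 to 0.303%).

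**Figure D1:**
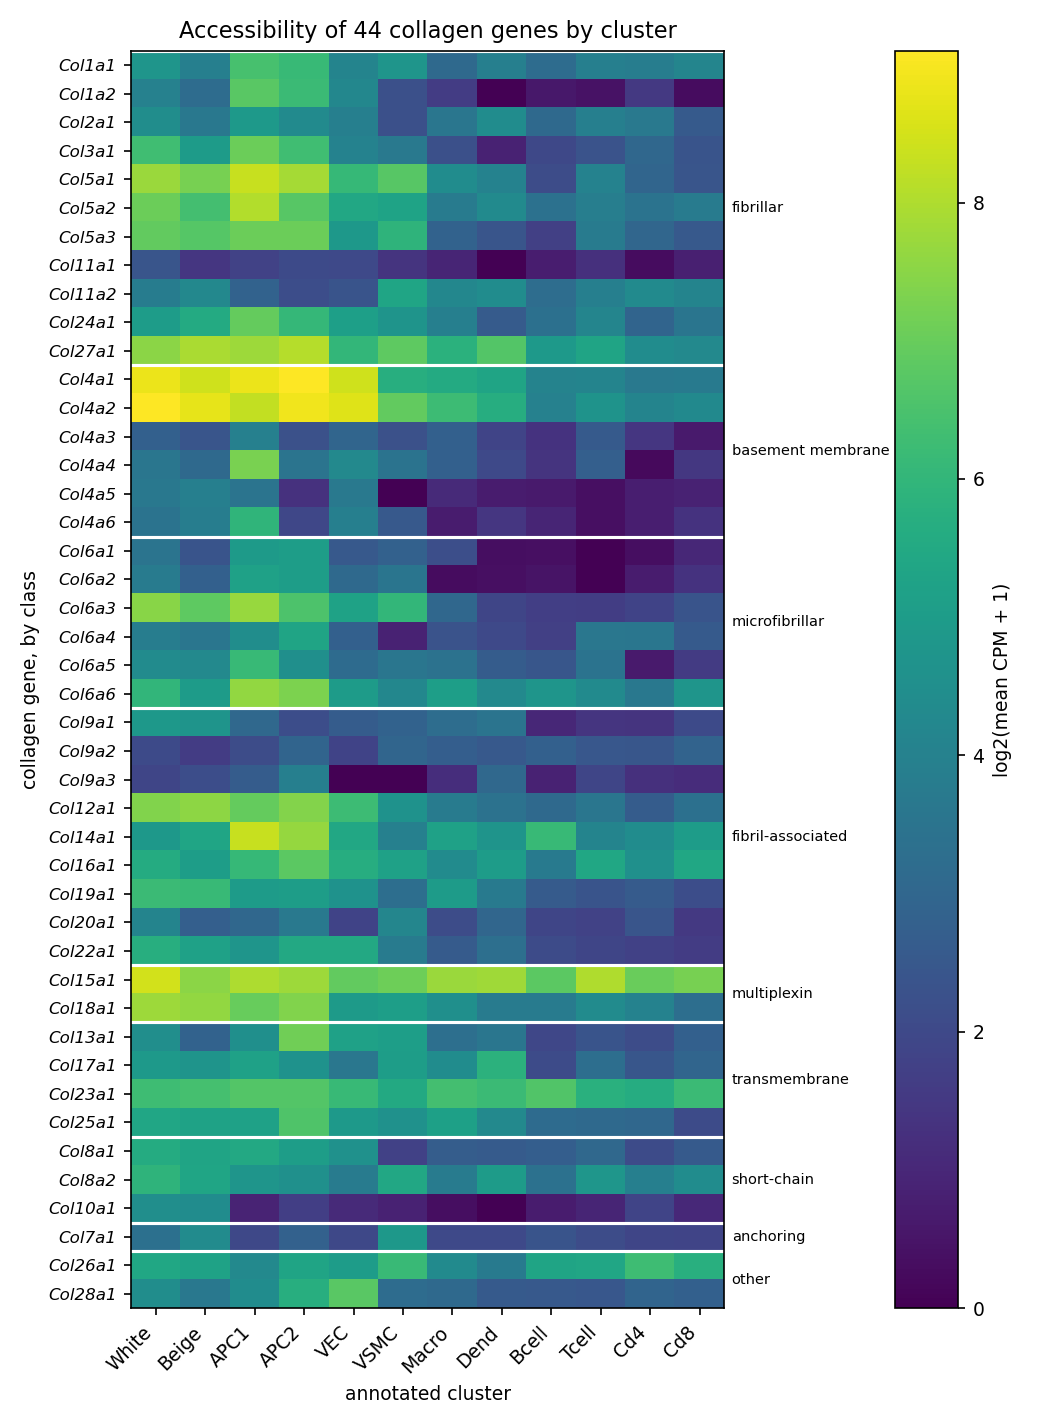
Heat map of the mean accessibility of the 44 collagen genes (rows, by class) in the 12 annotated clusters (columns), as log2 of mean CPM plus 1 over mice. Levels are not scaled by peak length, so brightness compares clusters within a row and not genes. Col4a1 and Col4a2 are brighter in white and beige adipocytes, APC1, APC2 and VEC than in the other clusters. Most fibrillar genes are brightest in APC1 or APC2. Most rows are darker in the immune columns than in APC1 and APC2, less so Col15a1, Col23a1 and Col26a1.

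By gene, the highest mean level was found in APC1 for 16 genes, in white adipocytes for 10, in APC2 for 9, in the VSMC cluster for 4, in beige adipocytes for 2 and in VEC, dendritic cells and CD4 T cells for 1 each. For most genes the highest and second means differed by no more than the larger SD. Col5a3, for example, was at 133 ± 36.7 CPM in APC2 and 132 CPM in APC1. The same counts over all genes were not made. Type I collagen, the main fiber of connective tissue, led per kb of peak in the progenitor clusters. Col1a2 reached 74.6 and Col1a1 63.6 CPM per kb in APC1, and 49.5 and 50.0 CPM per kb in APC2. In APC1 these were followed by Col4a4 (56.6), Col3a1 (53.7) and Col6a2 (39.2 CPM per kb), and in APC2 by Col13a1 (41.0), Col6a2 (35.5) and Col6a1 (33.6 CPM per kb). White adipocytes were instead led by Col3a1 (31.7), Col4a2 (28.4), Col6a3 (27.5), Col4a1 (26.9) and Col10a1 (25.8 CPM per kb). Beige adipocytes had Col12a1 (25.4), Col10a1 (24.5), Col7a1 (22.4), Col4a2 (22.3) and Col18a1 (20.5 CPM per kb). The peak of Col10a1 also counts for Nt5dc1, the gene it lies within, so its level cannot be given to one of them. VEC had Col28a1 first at 29.6 CPM per kb, then Col4a2 (20.8), Col4a1 (20.5), Col22a1 (13.2) and Col16a1 (12.6). Spread was wide there too, in the same sequence 107.5 ± 80.6, 398.9 ± 200, 345.7 ± 169, 43.81 ± 40.0 and 50.13 ± 33.6 CPM (SD, n = 15).

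In the VSMC cluster the leading genes were Col7a1 (31.5 CPM per kb), Col11a2 (21.5), Col1a1 (18.8), Col20a1 (18.2) and Col8a2 (13.4). Their spread was wide, so their order was not told apart. In this sequence they were at 27.81 ± 24.8, 40.2 ± 25.7, 25.78 ± 21.3, 17.25 ± 28.4 and 43.0 ± 35.8 CPM (SD, n = 10). Immune clusters reached less per kb. Col15a1 led in macrophages (12.5) and T cells (15.3 CPM per kb), Col17a1 in dendritic cells (17.4), Col23a1 in B cells (14.6), Col26a1 in CD4 T cells (13.1 CPM per kb) and Col1a1 in CD8 T cells. The other places among the first 5 of these 6 clusters were held by Col1a1, Col2a1, Col8a2, Col9a2, Col9a3, Col11a2, Col14a1, Col15a1, Col16a1, Col23a1 and Col26a1, at 6.58 to 15.7 CPM per kb.

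Tests between clusters were possible for 23 of the 44 genes. The other 21 had too few counts for the filter, with highest cluster means between 4.25 and 71.9 CPM. The 23 tested are those with more counts and are not all members. Since the authors had drawn the clusters from the same matrix, cluster comparisons describe these clusters and are not independent of how they were made. All used the quasi-likelihood test of edgeR over 9553 genes with Benjamini-Hochberg adjustment. Differences on the log2 scale, here and below, are coefficients of the fit and not ratios of the mean CPM beside them. A coefficient can be smaller or larger than that ratio. Beyond Col1a1, Col1a2, Col3a1, Col4a1, Col4a2, Col5a1, Col6a1, Col6a2, Col6a3, Col15a1, Col18a1 and Col27a1, which were to be named in any case, genes with a mean under 20 counts per library are named for the size of their change, a choice made after their values were seen.

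The question of the study was how chromatin is remodelled as fat turns beige, and the first comparison was of beige with white adipocytes. Collagen genes were mostly less accessible in beige adipocytes. Of 23 tested, 12 were lower (52.2%) and 4 higher (17.4%), where 22.9% of all genes were lower and 9.18% higher. The median log2 difference was -0.35 over the collagen genes and -0.07 over all genes. Over all 44 members, without a test, the mean was lower in beige adipocytes for 34 and higher for 10. The same count over all genes was not made, and the balance of this comparison moved with scaling, as given below.

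Among fibrillar genes, Col3a1, whose type III fibers accompany type I, differed most. It lay at 28.1, 80.0 and 117 CPM (lowest, median and highest of 21 mice) in white and at 0, 30.8 and 61.7 CPM (19 mice) in beige adipocytes. The ranges overlapped, but it was lower in beige nuclei in all 19 mice that had both. The log2 difference was -1.21 (SE 0.13, edgeR adjusted p = 1.66e-17). Col5a1 and Col5a2, chains that limit fibril width, were also lower, at 151 against 213 CPM (-0.40) and 82.9 against 131 CPM (-0.41). Col1a1 was at 14.1 against 25.5 CPM (-0.37, edgeR adjusted p = 0.0448). With the mouse as a block this call was lost (-0.34, edgeR adjusted p = 0.0813), as it was with RLE factors and DESeq2. Col1a2, at 8.37 against 14.8 CPM, was not called (-0.34, adjusted p = 0.0945 by edgeR).

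Fibrillar genes moved in both directions, since Col27a1 and Col24a1, chains of less abundant fibrils, were higher in beige adipocytes. Col27a1 ranged from 139 over 181 to 244 CPM in white and from 108 over 256 to 411 CPM in beige adipocytes, and was higher in 15 of 19 mice (log2 difference 0.46, SE 0.077, edgeR adjusted p = 1.63e-07). Col24a1 was at 45.8 against 31.3 CPM, higher in 15 of 19 mice (log2 difference 0.55, SE 0.13, edgeR adjusted p = 2.79e-04). Col5a3 was not called.

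In the basement membrane class both broadly used chains were lower in beige adipocytes. Col4a1 was at 345 ± 75.0 against 455 ± 60.3 CPM and lower in 16 of 19 mice, and Col4a2 at 428 ± 73.8 against 544 ± 59.2 CPM and lower in 17 of 19. The log2 difference was -0.35 for each (SE 0.066 and 0.071, edgeR adjusted p = 1.90e-06 and 1.28e-05). They lie head to head on chromosome 8, share 2 peaks and so are not independent. Col4a4 was not called at 7.63 against 10.8 CPM.

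The multiplexins stood apart from each other. Col15a1, found where basement membranes meet fibrils, was at 217, 344 and 456 CPM (lowest, median and highest) in white and at 0, 169 and 363 CPM in beige adipocytes, lower in all 19 mice (log2 difference -0.81, SE 0.077, edgeR adjusted p = 7.88e-21). Col18a1, the source of endostatin, was not called at 198 against 215 CPM (-0.06, SE 0.071). Both tested type VI genes were lower, Col6a3 at 112 against 179 CPM (-0.63, lower in 18 of 19 mice) and Col6a6 at 31.1 against 62.2 CPM (-0.84). Col6a1 and Col6a2, too low to test, had means of 4.11 against 10.5 and 5.88 against 12.9 CPM.

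Of the fibril-associated collagens, Col14a1 (39.5 against 27.9 CPM, 0.41) and Col12a1 (187 against 163 CPM, 0.19, edgeR adjusted p = 0.0417) were higher and Col16a1 lower (32.6 against 46.9 CPM, -0.47). The transmembrane Col13a1 was lower at 6.27 against 21.5 CPM (coefficient -0.58, a smaller change than these means give). Col28a1 was lower as well, at 11.62 against 20.8 CPM (-0.56). Col23a1, Col25a1 and Col26a1 were not called. Scaling moved the balance of this comparison: of all genes called, 28.6% were higher in beige adipocytes as fitted, 58.0% with RLE factors and 59.1% with DESeq2, and the collagen counts became 5 higher and 11 lower, and 5 and 10.

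**Figure D2:**
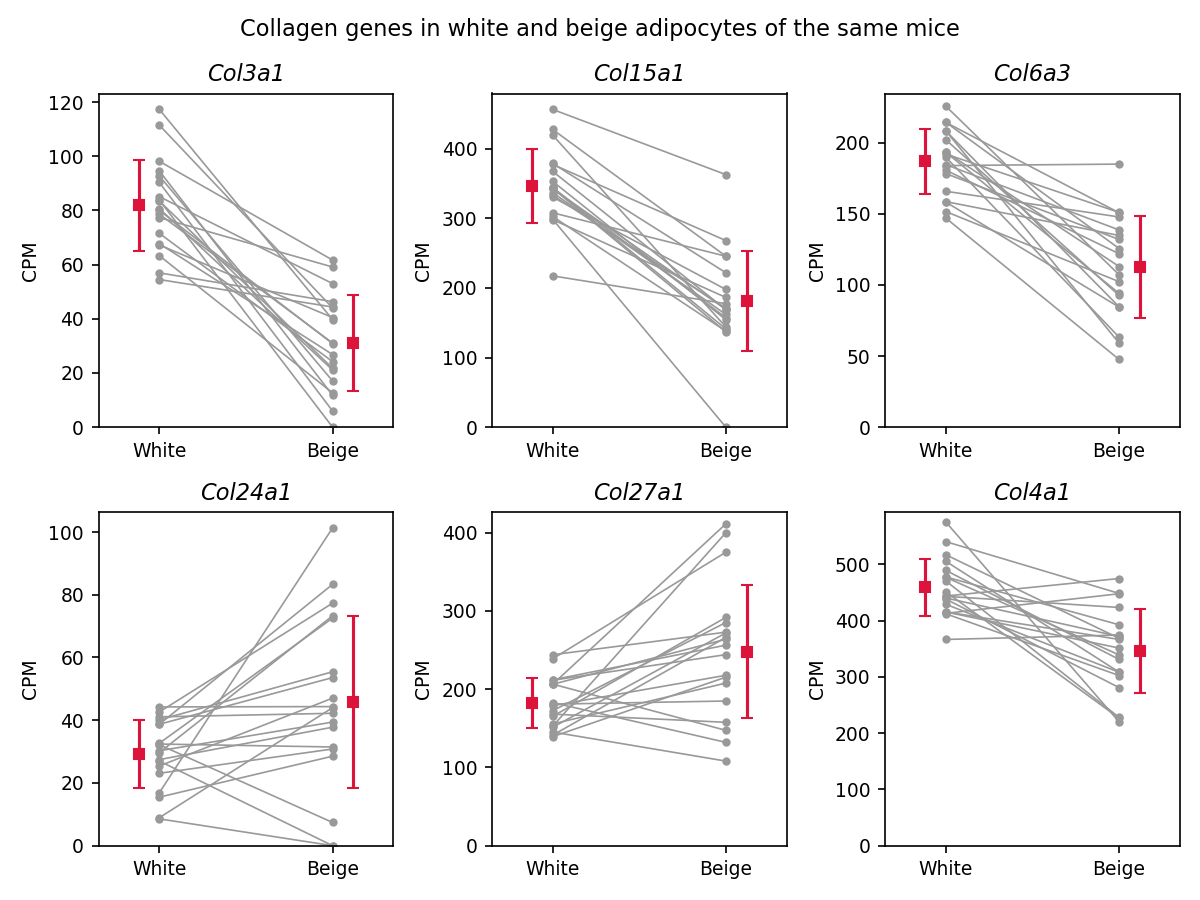
CPM of 6 collagen genes in white and beige adipocytes. Each line joins both levels of 1 mouse (19 mice with both), and squares with bars give the mean ± SD over these mice. Lines for Col3a1 and Col15a1 fall in all 19 mice, those for Col6a3 in 18 and those for Col4a1 in 16, whereas Col24a1 and Col27a1 rise in 15.

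Genes that modify, bind or accompany collagen were taken from lists that were chosen with earlier results of these data known. In beige adipocytes 8 of 15 tested basement membrane partners were lower and 1 higher, with Nid1, which bridges laminin and type IV collagen, at -0.85 and Lama5 at 0.34. Of 10 processing and crosslinking genes 5 were lower, among them the procollagen proteinase Tll1 at -0.80, and 1 was higher. Of 7 receptors 3 were lower and 1 higher, with the collagen receptor kinase Ddr2 at -0.91, the uptake receptor Mrc2 at -0.73 and the integrin chain Itga11 at 0.43. Of 15 modifying genes 2 were lower and 1 higher, and of 5 degradation genes 1 was higher. Over all genes 22.9% were lower and 9.18% higher, which the modifying genes did not exceed.

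The clusters APC1 and APC2 differed in which collagens were accessible. Of 23 genes tested 9 were higher in APC1 (39.1%) and 5 lower (21.7%), against 11.1% and 14.3% of all genes. The median log2 difference was 0.11, and -0.01 over all genes. Since APC2 also carried mural markers at 918 CPM and few progenitor markers, the part of these differences that goes with cell type cannot be told apart from the cluster label.

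Fibrillar genes were called only in the direction of APC1, with 5 of 8. Col5a2 was at 265 ± 132 against 105 ± 37.5 CPM (log2 difference 1.52, SE 0.15, edgeR adjusted p = 2.38e-18), higher in 15 of 18 mice. Col24a1 was at 122 against 65.6 CPM (0.85), Col3a1 at 133 against 78.2 CPM (0.77), Col5a1 at 321 against 235 CPM (0.54) and Col1a2 at 109 against 72.4 CPM (0.52, edgeR adjusted p = 0.0444). Col1a1 was close to the threshold at 87.5 against 68.8 CPM (0.51, edgeR adjusted p = 0.0534), and Col5a3 and Col27a1 were not called.

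The largest difference was in Col4a4, a chain of specialised basement membranes such as that of the kidney glomerulus. It ranged over 0, 173 and 264 CPM (lowest, median and highest of 20 mice) in APC1 and over 0, 0 and 58.6 CPM (19 mice) in APC2, and was higher in APC1 in 16 of 18 mice and lower in none (log2 difference 3.20, SE 0.25, edgeR adjusted p = 2.56e-28). Col4a6, not tested, had means of 61.7 and 2.87 CPM and Col4a3 14.6 and 3.74 CPM in the same order. Col4a2 went the other way, at 307 against 480 CPM and lower in 17 of 18 mice (-0.48, SE 0.13, edgeR adjusted p = 0.00126), while Col4a1 was not called at 451 against 547 CPM (-0.14). Type IV genes thus differed in both directions between the clusters.

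Col6a3 was higher in APC1 (204 against 92.9 CPM, 1.28), as were Col6a6 (0.43) and the fibril-associated Col14a1 (319 against 200 CPM, 0.67). Col6a5 was not tested, with means of 68.8 and 22.0 CPM. The transmembrane Col13a1 marked the other side. It was at 0, 22.1 and 58.5 CPM (lowest, median and highest) in APC1 and at 56.0, 147 and 272 CPM in APC2, and lower in APC1 in 18 of 18 mice (log2 difference -2.35, SE 0.24, edgeR adjusted p = 1.10e-18). Col25a1 (35.8 against 94.8 CPM, -1.28), Col16a1 (-0.67) and Col12a1 (-0.48) were lower as well. The call of Col12a1 was lost with RLE factors (-0.35, edgeR adjusted p = 0.0989), with DESeq2 and with libraries of at least 30 nuclei. The last setting also ended the calls of Col1a2, Col4a2 and Col6a6, as did nuclei with at least 2000 counts. Col15a1 (0.29), Col18a1 (-0.35), Col23a1, Col26a1 and Col28a1 were not called.

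**Figure D3:**
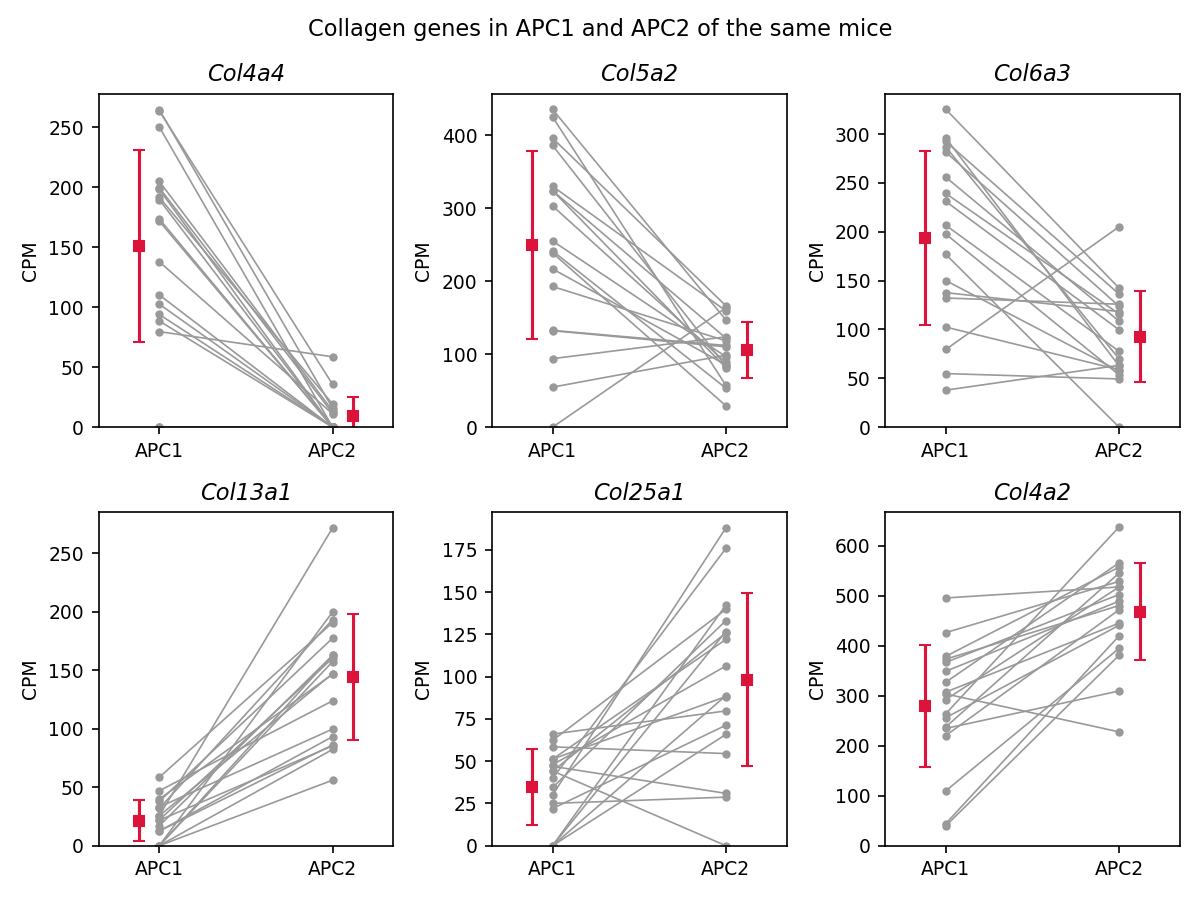
CPM of 6 collagen genes in APC1 and APC2. Each line joins both levels of 1 mouse (18 mice with both), and squares with bars give the mean ± SD over these mice. Col4a4 is near 0 in APC2 in most mice and Col13a1 is higher in APC2 in all 18, whereas the lines of Col4a2 rise towards APC2 in 17.

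The basement membrane partners divided likewise, 8 of 15 being higher and 4 lower in APC1. The laminin chain Lama2 was at 2.80 and Nid1 at 1.76 on the log2 scale, and Lama5 at -2.57, Lama1 at -2.29 and Lama3 at -1.66. Of 10 processing genes 5 were higher and 2 lower, with the proteinase enhancer Pcolce2 at 1.44 and the N-propeptidase Adamts3 at -2.02. Of 15 modifying genes 2 were higher and 1 lower, the prolyl hydroxylase P3h2 at -1.92. The collagen-binding integrin chain Itga1 was lower (-1.71), 1 of 2 lower among 7 receptors, and 2 of 5 degradation genes were higher, where 11.1% of all genes were higher and 14.3% lower.

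Against both progenitor clusters taken with equal weight, adipocytes (white and beige with equal weight) had 17 of 23 collagen genes lower (73.9%) and 4 higher (17.4%), where 28.4% and 33.8% of all genes were called. The median log2 difference was -0.62, against 0.01 over all genes. All 8 tested fibrillar genes were lower. Col1a2 was at 11.59 against 90.7 CPM (-2.105), Col1a1 at 19.8 against 78.1 CPM (-1.59), Col3a1 at 54.9 against 106 CPM (-0.95), Col5a1 at 182 against 278 CPM (-0.62) and Col27a1 at 216 against 244 CPM (-0.20, edgeR adjusted p = 0.0317). Col14a1 had the largest difference, at 33.7 against 259 CPM (-2.73, SE 0.096, edgeR adjusted p = 2.36e-92), lower in all 21 mice. Col6a6 (-1.78), Col4a4 (-1.69) and Col13a1 (-1.58) were lower too.

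The 4 higher genes were a smaller share of the collagen genes than higher genes were of all genes. Col18a1 was at 207 against 146 CPM (0.56, SE 0.091, edgeR adjusted p = 6.24e-09), higher in 17 of 21 mice, and Col4a2 at 486 against 394 CPM (0.24, SE 0.072, edgeR adjusted p = 0.00238). Col4a1 was lower at 400 against 499 CPM (-0.37), and Col6a3 (146 against 148 CPM) and Col15a1 (267 against 232 CPM) were not called. Col26a1 (0.38) and Col12a1 (0.24) were higher. With RLE factors and with DESeq2 the calls of Col4a2, Col12a1 and Col26a1 were lost, which left Col18a1 as the 1 higher gene. Against APC1 alone 15 genes were lower and 4 higher, with Col4a2 at 0.48 and Col18a1 at 0.74, but Col25a1 (0.10), Col13a1 (-0.41) and Col27a1 (-0.07) were not called. Against APC2 alone 14 were lower and 2 higher, Col18a1 at 0.39. Not called were Col4a2 (-0.00), Col12a1 (-0.00), Col5a2 (0.10), Col4a4 (-0.09), Col26a1 (0.03) and Col5a3 (-0.21). The shares of all genes called against APC1 or APC2 alone are not given here.

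In adipocytes the same lists had 9 of 15 modifying, 7 of 10 processing, 5 of 7 receptor and 5 of 5 degradation genes lower. Over all genes 28.4% were lower and 33.8% higher. The membrane collagenase Mmp14 was at -3.40, Ddr2 at -2.70 and the inhibitor Timp2 at -2.51 on the log2 scale. Of 15 basement membrane partners 6 were higher, a share near that of all genes, and 1 was lower. Pxdn, which crosslinks type IV collagen, was at 1.22 and the laminin chain Lamb3 at 1.20. Plod1, a lysyl hydroxylase, was the 1 modifying gene that was higher (0.94).

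VEC had 17 of 23 collagen genes lower than the progenitor clusters (73.9%) and 1 higher (4.3%), against 15.9% and 6.75% of all genes, and a median log2 difference of -1.15 against -0.11 over all genes. Col28a1, a collagen found at glial and other basement membranes, was the gene that was higher, at 108 ± 80.6 against 36.0 CPM (1.36, SE 0.24, edgeR adjusted p = 9.01e-07) and in 12 of 15 mice. Col4a2 was not called at 399 against 394 CPM (0.13, SE 0.14) and Col4a1 was lower at 346 against 499 CPM (-0.49), a call lost with only the compared clusters in the fit (-0.20, edgeR adjusted p = 0.129). Col14a1 (-2.45), Col6a6 (-2.07), Col3a1 (-1.85), Col5a1 (-1.79) and Col18a1 (30.4 against 146 CPM, -1.71) were the lowest, and Col6a3 (-1.65), Col27a1 (-1.62), Col1a1 (-1.57), Col1a2 (-1.41) and Col15a1 (-0.92) were lower too. VEC libraries were small, 11 to 53 nuclei, and with only the compared clusters in the fit 7 collagen genes were tested and 6 called. Against APC1 alone 15 were lower and Col13a1 (0.23), Col12a1 (-0.50) and Col23a1 (-0.62) were not called, and against APC2 alone 17 were lower, without Col23a1 (-0.61) and Col24a1 (-0.49). Col28a1 was the 1 higher gene against both. The shares of all genes called with only the compared clusters, and against APC1 or APC2 alone, are not given here.

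The VSMC cluster, which carried skeletal muscle markers at 1312 CPM, had 22 of 23 genes lower than the progenitor clusters (95.7%) and 1 higher (4.3%), against 24.9% and 17.2% of all genes. The median log2 difference was -1.51 against -0.10. Col4a1 was at 51.8 ± 31.1 CPM against 499 CPM (-3.04, SE 0.19, edgeR adjusted p = 3.89e-40) and Col4a2 at 119 against 394 CPM (-1.59), and Col14a1 (-3.23), Col1a2 (-3.22) and Col6a6 (-2.88) were as low. Col26a1, a little-studied secreted collagen, was higher at 70.6 against 28.5 CPM (1.24) in 7 of 10 mice. Col7a1 and Col11a2, not tested, had means of 27.8 and 40.2 CPM there, the highest means of the 12 clusters. Against APC1 or APC2 alone 19 genes were lower and 1 higher, and the shares of all genes called in these comparisons are not given here. Col13a1 (0.22), Col16a1 (-0.56) and Col25a1 (-0.43) were not called against APC1, nor were Col24a1 (-0.73), Col4a4 (-0.01) and Col6a3 (-0.15) against APC2.

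Immune clusters had 22 of 23 genes lower (95.7%) and 0 higher, against 31.5% and 40.5% of all genes, with a median log2 difference of -2.67 against 0.12. The count of 0 is from edgeR, and by DESeq2 it was also 0. Of the 23, 22 also had an unadjusted p under 0.05 by edgeR, as did 7068 of all 9553 genes. Col4a1 was at 23.6 against 499 CPM (-4.21), Col5a1 at 10.9 against 278 CPM (-3.97), Col6a3 at 3.52 against 148 CPM (-3.65) and Col4a2 at 33.1 against 394 CPM (-3.51). Col15a1 stood out with 180 against 232 CPM (-0.54), since it reached 258 CPM in T cells, 221 CPM in dendritic cells and 212 CPM in macrophages. Col23a1 (-0.58) differed as little, and Col26a1 was not called (0.22), though it was the 1 higher gene against APC1 alone. The share of all genes called in that comparison is not given here. The remaining lists had 15 of 15 basement membrane partners, 7 of 7 receptors, 9 of 10 processing genes, 10 of 15 modifying genes and 5 of 5 degradation genes lower, with 3 modifying genes higher. In VEC the same lists had 8, 5, 7, 4 and 4 genes lower and 1, 0, 0, 2 and 0 higher, where 15.9% of all genes were lower and 6.75% higher. In the VSMC cluster they had 10, 5, 9, 6 and 5 lower and 1, 0, 0, 1 and 0 higher, where 24.9% of all genes were lower and 17.2% higher.

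For the 21 genes too low for tests between clusters, the cluster with the highest mean is given, and other clusters were often close to it. Col8a1, for example, was at 47.7 CPM in white adipocytes and 43.5 CPM in APC1, whereas Col4a6 was at 61.7 CPM in APC1 and 14.4 CPM in VEC. Adipocytes had the highest means for Col8a1 (47.7 CPM in white), Col8a2 (58.8), Col9a1 (28.0), Col10a1 (21.6), Col11a1 (4.25), Col19a1 (71.9) and Col22a1 (50.7 CPM), all in white adipocytes, and for Col4a5 in beige adipocytes (14.1 CPM). Col19a1 was almost as high in beige adipocytes, at 69.1 ± 29.8 CPM against 71.9 ± 18.1 CPM. APC1 was highest for Col2a1 (29.4 ± 38.6 CPM), Col4a3, Col4a6, Col6a2 and Col6a5, and APC2 for Col6a1 (32.8), Col6a4 (39.0) and Col9a3 (14.3 CPM). Col17a1, a hemidesmosome component, was highest in dendritic cells at 56.8 ± 32.0 CPM against 36.1 ± 31.2 CPM in APC1. Col7a1, Col9a2 (6.89 CPM), Col11a2 and Col20a1 (17.2 CPM) were highest in the VSMC cluster. In many of these the SD was about as large as the mean, so neighbours in the order of clusters were not told apart.

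Effects of cold and CL were asked of the adipocytes, with white and beige nuclei of a mouse summed and 3 mice per group. Of 44 collagen genes 39 passed the filter among 14429 genes, Col4a3, Col4a6, Col9a2, Col9a3 and Col11a1 being too low. Of these, 4 genes were called in at least 1 treated group, each time higher than in day0RT. All treated groups were compared with the same 3 day0RT mice, so the comparisons are not independent. The total share of collagen genes in adipocyte counts lay between 0.263% and 0.319% in all 21 mice. It was 0.319%, 0.295% and 0.311% in day1CL, above the 0.263%, 0.293% and 0.276% of day0RT, and the other treated groups overlapped day0RT. The highest value was that of a day1CL library of 29 nuclei, and the shares were not tested.

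After cold, Col24a1 was the 1 collagen gene called. It was at 6.11, 10.7 and 23.2 CPM in the day0RT mice, at 38.2, 24.1 and 30.4 CPM in day3C and at 36.8, 43.5 and 35.6 CPM in day7C. Each day3C and day7C mouse lay above each day0RT mouse. Such a lack of overlap, in either direction, was seen in 9 of 39 collagen genes in day3C and 14 in day7C. The share of all genes without overlap was not computed, so these counts cannot be read against a background. The log2 difference was 1.04 (SE 0.28, edgeR adjusted p = 0.0292) in day3C and 1.16 (SE 0.29, edgeR adjusted p = 0.00699) in day7C. In day3C this was 1 of 39 genes higher and 0 lower, where 0.846% and 0.748% of all genes were called, and in day7C 1 and 0, where 3% and 2.13% were called. After 1 day of cold edgeR and DESeq2 each called 0 collagen genes, and by edgeR 0.097% of all genes were higher and 0.201% lower. At an unadjusted p under 0.05 by edgeR there were 1 of 39 collagen genes and 1437 of all 14429 genes.

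The cold result for Col24a1 was small in counts. Without day0RT replicate 1 the difference was 0.74 in day3C (edgeR adjusted p = 0.243) and 0.85 in day7C (edgeR adjusted p = 0.109), and the day3C call was also lost without day0RT replicate 2 or day3C replicate 1 and with the replicate number as a block (0.96, edgeR adjusted p = 0.0583). Beige nuclei, in which the gene was more accessible, made up 9.22% ± 2.62 of adipocyte nuclei in day0RT, 12.2% ± 3.21 in day3C and 29.4% ± 3.20 in day7C (n = 3 each), and the beige marker list rose from 165 CPM (135 to 183) to 209 CPM (190 to 231) and 280 CPM (252 to 332). In white nuclei alone the difference was 0.85 (edgeR adjusted p = 0.139) in day3C and 0.87 (edgeR adjusted p = 0.175) in day7C. The part of beige nuclei in the difference was not tested.

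After CL, Col27a1, Col15a1 and Col19a1 rose. Col27a1 was at 118, 156 and 131 CPM in day0RT and at 296, 169 and 220 CPM in day1CL, with no overlap (log2 difference 0.70, SE 0.15, edgeR adjusted p = 0.00312). Col15a1 was at 273, 238 and 250 CPM in day0RT and at 351, 354 and 359 CPM in day1CL, again with no overlap (0.48, SE 0.14, edgeR adjusted p = 0.0300). These 2 of 39 genes were higher and 0 lower, where 1.16% and 1.49% of all genes were called. Without overlap of the groups, in either direction, were 6 of the 39. The share of all genes without overlap was not computed, so this count has no background to be read against.

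In day7CL, Col19a1, a collagen of basement membrane zones, was at 71.9, 74.4 and 71.0 CPM against 40.7, 42.6 and 48.8 CPM in day0RT (0.66, SE 0.18, edgeR adjusted p = 0.0101). Its groups did not overlap, which held, in either direction, for 9 of the 39 collagen genes. For all genes this share was not computed either. Col27a1 was at 196, 156 and 151 CPM, which overlaps the day0RT mice (0.40, SE 0.13, edgeR adjusted p = 0.0497). This made 2 of 39 higher and 0 lower against 4.63% and 3.14% of all genes, so that the collagen share was near the background. In day3CL edgeR called 0 of the 39 collagen genes and DESeq2 called 0, where edgeR called 3.06% of all genes higher and 1.68% lower. At an unadjusted p under 0.05 by edgeR there were 9 of 39 collagen genes and 2724 of all 14429 genes. With the replicate number as a block 1 was called higher and 1 lower, and the share of all genes called in that fit is not given here. Col24a1 was at 35.5, 26.0 and 33.2 CPM there (0.82, edgeR adjusted p = 0.0753) and Col27a1 at 166, 174 and 169 CPM (0.37, edgeR adjusted p = 0.0949).

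The CL results depended on single libraries. In day1CL, replicates 1 and 2 held 29 and 68 adipocyte nuclei, against 156 to 933 in all other mice, and without day1CL replicate 3 the calls of Col27a1 and Col15a1 were lost. Col15a1 in day1CL was also lost without day1CL replicate 2 or day0RT replicate 2 or 3, Col19a1 without day7CL replicate 1 or day0RT replicate 1, and Col27a1 in day7CL without day7CL replicate 1 or day0RT replicate 1 or 3 and with the replicate number as a block (0.39, edgeR adjusted p = 0.0684). The beige share was 14.2% ± 6.67 in day1CL and 20.0% ± 4.85 in day7CL, and in white nuclei alone Col27a1 differed by 0.53 in day1CL (edgeR adjusted p = 0.0679) and 0.36 in day7CL (edgeR adjusted p = 0.112) and Col15a1 by 0.48 (edgeR adjusted p = 0.0579). Whether beige nuclei took part was not tested.

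**Figure D4:**
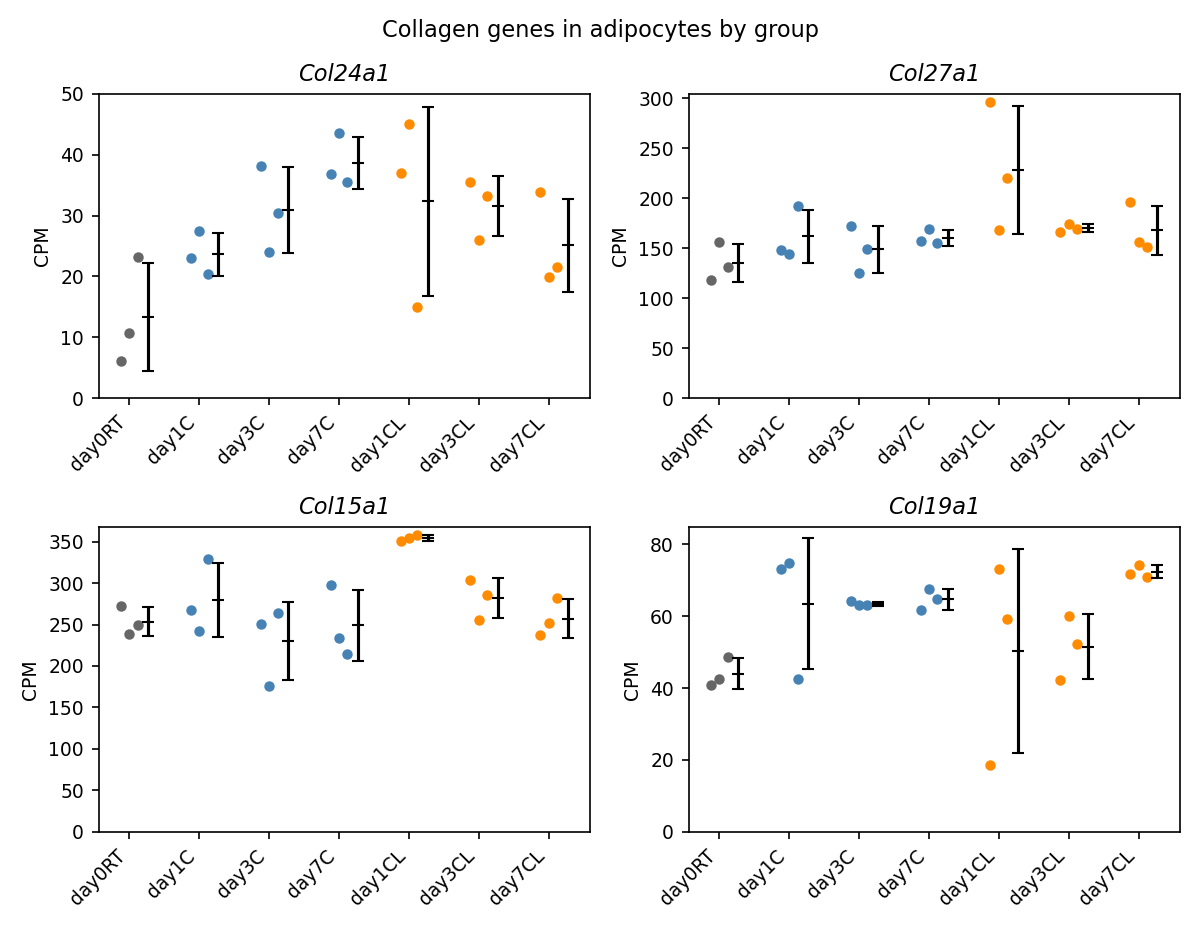
CPM of Col24a1, Col27a1, Col15a1 and Col19a1 in adipocytes of the 7 groups (grey day0RT, blue cold, orange CL). Points are mice, and dashes with bars give the mean ± SD of 3 mice. Col24a1 lies above all day0RT mice in day3C and day7C, Col27a1 and Col15a1 in day1CL and Col19a1 in day7CL. Col24a1 and Col27a1 also do so in day3CL, where neither was called.

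Other collagen genes of adipocytes missed the threshold in every group. Col6a3 had its lowest mean in day7C, at 110, 97.6 and 138 CPM against 157, 153 and 156 CPM in day0RT (-0.39, edgeR adjusted p = 0.0879). Col4a1 (-0.20) and Col4a2 (-0.20) in day7C, Col1a2 in day7C (-0.75) and day7CL (-0.75), and Col3a1, Col5a1, Col18a1, Col1a1, Col6a1 and Col6a2 in all groups were not called. Over the 39 genes the median log2 difference from day0RT was -0.01 in day1C, 0.12 in day3C, 0.18 in day7C, 0.07 in day1CL, 0.14 in day3CL and 0.17 in day7CL, with 0.00 to -0.01 over all genes. Between CL and cold, averaged over days, edgeR and DESeq2 each called 0 collagen genes, where edgeR called 1.85% of all genes higher and 0.97% lower. At an unadjusted p under 0.05 by edgeR there were 7 of 39 collagen genes and 2351 of all 14429 genes. With the replicate number as a block 2 were called higher. The share of all genes called in that fit is not given here, so this count has no background. Col27a1 was closest, at 189 CPM against 157 CPM (0.23, SE 0.072, edgeR adjusted p = 0.0615), followed by Col15a1 (0.20, edgeR adjusted p = 0.0858).

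The lists around collagen held a few called genes in the same adipocytes. Of all genes, 0.097% (day1C) to 4.63% (day7CL) were higher than in day0RT and 0.201% (day1C) to 3.14% (day7CL) lower. How the lists stood against these shares was not tested. Lama4, a laminin chain of vessel and adipocyte basement membranes, was lower than day0RT in day3C (-0.43), day7C (-0.39), day1CL (-0.42), day3CL (-0.38) and day7CL (-0.37). Nid2, which links laminin to type IV collagen, was higher in day3C (0.47), day1CL (0.57), day3CL (0.48) and day7CL (0.48), and Itga1, the chain of a type IV collagen receptor, in day1C (0.53), day7C (0.39), day3CL (0.40) and day7CL (0.39). The collagen receptor kinase Ddr1 was higher in day1CL (0.78) and day3CL (0.63). In day7C, Pxdn (-0.41) and Nid1 (-0.42) were lower and Plod1 higher (0.62), and in day7CL Pxdn was lower (-0.37) and Colgalt2 (0.77) and Itga2 (0.57) higher. Mmp8 was higher in day1CL (1.87). Against cold, Lama5 (0.47) was higher in CL. No processing gene was called in any of the 7 comparisons.

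In progenitor clusters, APC1 and APC2 nuclei summed per mouse (25 to 118 nuclei), no gene was called, which at this depth does not show that none changed. Of 4261 genes tested, 20 were collagens, and edgeR called 0 of them and 0% of all genes in either direction, both for all treated mice against day0RT and for CL against cold. At an unadjusted p under 0.05 there were 217 and 251 genes, 1 collagen in each, and DESeq2 called 0 collagen genes in both. Col3a1 was at 97.5 CPM in treated and 156 CPM in day0RT mice (-0.50, SE 0.24, edgeR adjusted p = 0.966), and Col5a2 at 222 CPM in CL and 154 CPM in cold (0.52, SE 0.20, edgeR adjusted p = 0.781). The progenitor marker list ranged from 225 to 1069 CPM between these libraries, so the balance of both clusters differed from mouse to mouse. Adipocyte markers in them were at 242 to 323 CPM in day0RT and at 270 to 503 CPM in treated mice, and their part in these values was not tested. In VEC only 1 day0RT library reached 10 nuclei, and treated and control mice were not compared.

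Peaks were then tested one by one, to see where within the genes beige and white adipocytes differed. Of 476 collagen peaks 48 had enough counts among 24854 peaks, and 7 were higher in beige adipocytes and 14 lower, against 13% and 14% of all tested peaks. The median log2 difference was -0.24, and -0.03 over all peaks. With the mouse as a block the filter kept 153 collagen peaks and 51 were called. Their directions and the share of all peaks called in that fit are not given here. Of the 7 higher and 14 lower peaks, 6 and 9 lay in introns, and 1 and 3 covered an exon and an intron. A gene start was covered by 0 and 2, those of Col5a2 and Col22a1.

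Col27a1 had 3 of 4 tested peaks higher in beige adipocytes. They lay in introns 7726, 16302 and 96833 bases from the gene start, at chr4:63221230-63222231 (0.51), chr4:63229925-63230688 (0.66) and chr4:63310214-63311461 (0.52). The single tested peak of Col24a1, in an intron at chr3:145417610-145418611, was at 12.99 ± 9.99 against 6.75 ± 3.90 CPM (0.71, SE 0.20, edgeR adjusted p = 0.00297). Col12a1 had 1 of 5 peaks higher (chr9:79680177-79681720, 0.51). Col18a1, not called as a gene, had 2 of 5 peaks higher and 1 lower, but with the mouse as a block both higher calls were lost (0.32 and 0.28, edgeR adjusted p = 0.169 and 0.146).

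Col4a1 had 4 of 6 tested peaks lower, all within the gene and none higher, with chr8:11270764-11271303 at 8.63 against 16.0 CPM (-0.85) and chr8:11225625-11226383 at 8.12 against 20.4 CPM (-0.82). The peak over the start that it shares with Col4a2, chr8:11311511-11313308, was not called, at 35.9 ± 15.7 against 42.6 ± 9.38 CPM (-0.15, SE 0.11). Col4a2 had 2 of 8 peaks lower. Col15a1 had 2 of 5 lower, the stronger in the intron 1557 bases after the gene start (chr4:47209210-47210226), at 15.5 ± 9.73 against 33.1 ± 8.35 CPM and lower in 18 of 19 mice (-0.82, SE 0.14, edgeR adjusted p = 3.01e-07). The largest difference was in an intron of Col5a1, chr2:27888655-27889220, at 5.72 against 18.7 CPM (-0.90). In Col8a2, 1 of 2 peaks (chr4:126309565-126310392, -0.60), in Col6a3 1 of 2, and the single tested peaks of Col5a2 and Col22a1 were lower, and tested peaks of Col5a3, Col10a1, Col19a1 and Col23a1 were not called.

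**Figure D5:**
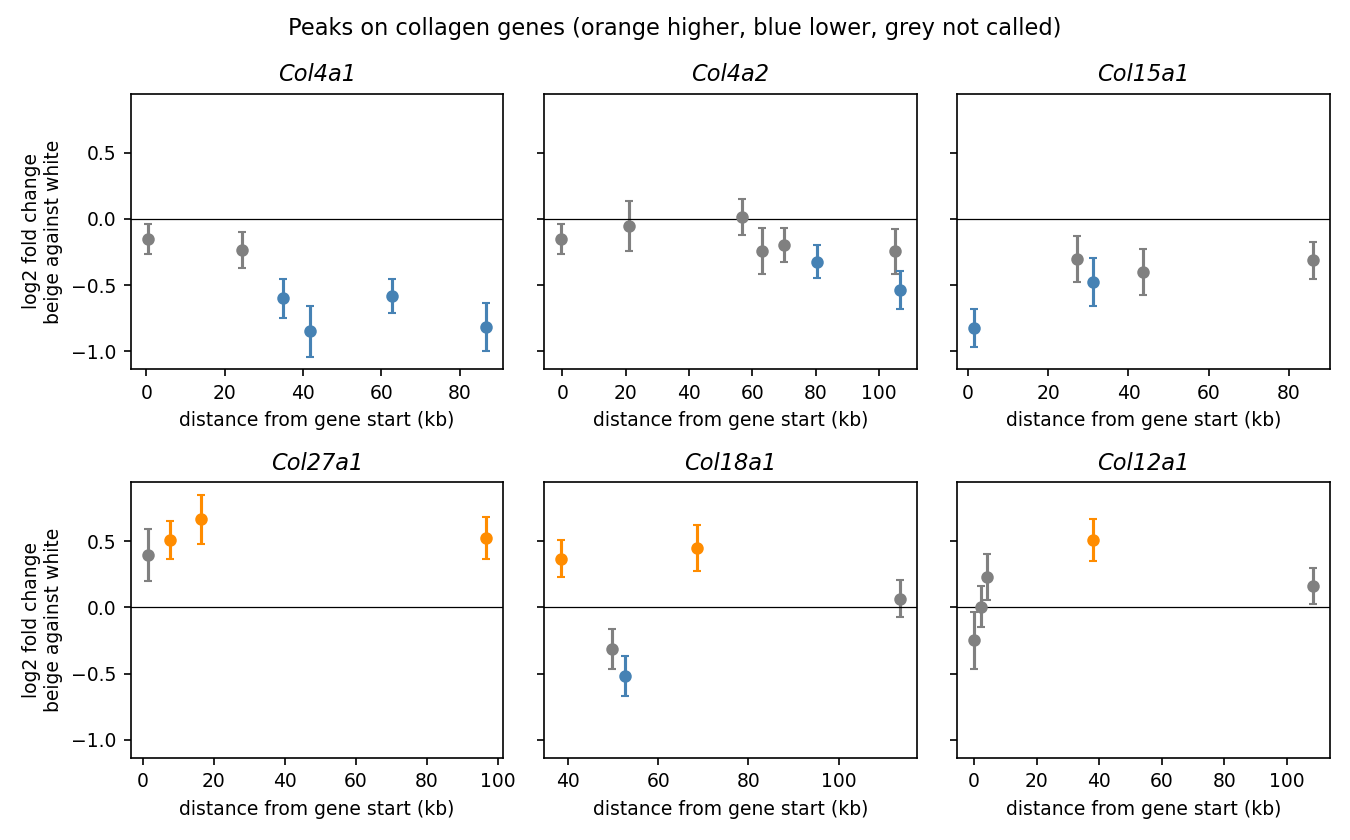
Log2 difference between beige and white adipocytes (y, ± SE) of each tested peak of 6 genes against its distance from the gene start in kb (x). Orange peaks are higher in beige adipocytes, blue lower and grey not called. The called peaks of Col4a1, Col4a2 and Col15a1 lie below 0 and those of Col27a1 and Col12a1 above, and Col18a1 has both, its higher calls being lost with the mouse as a block.

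Sequences are shown for 6 of these regions, 300 bases at the center of the peak, plus strand, from the GRCm38 (mm10) genome, all intronic, to show the DNA behind the largest difference of each gene named here, genes that were chosen after their values were seen. The peaks of Col24a1 and Col27a1 were higher in beige adipocytes, those of Col5a1 and Col15a1 and the first of Col4a1 lower, and the second of Col4a1 was lower in adipocytes than in progenitor clusters. Capitals mark GGAATG or its reverse complement CATTCC, the core of TEAD sites, and TGACTCA, the AP-1 site, both searched on both strands. A match is a description of letters and not a shown binding site.
Col24a1 chr3:145417961-145418260: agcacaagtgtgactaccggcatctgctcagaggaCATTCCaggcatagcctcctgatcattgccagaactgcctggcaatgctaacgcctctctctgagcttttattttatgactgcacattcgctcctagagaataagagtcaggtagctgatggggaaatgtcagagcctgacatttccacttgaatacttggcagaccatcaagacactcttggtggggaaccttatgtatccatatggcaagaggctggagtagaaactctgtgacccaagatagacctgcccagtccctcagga
Col27a1 chr4:63230157-63230456: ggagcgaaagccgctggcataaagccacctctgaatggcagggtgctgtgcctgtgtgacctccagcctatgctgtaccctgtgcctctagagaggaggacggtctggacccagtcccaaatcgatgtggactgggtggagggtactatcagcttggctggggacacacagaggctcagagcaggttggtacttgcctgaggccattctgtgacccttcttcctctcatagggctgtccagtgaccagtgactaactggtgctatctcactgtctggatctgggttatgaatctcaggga
Col15a1 chr4:47209569-47209868: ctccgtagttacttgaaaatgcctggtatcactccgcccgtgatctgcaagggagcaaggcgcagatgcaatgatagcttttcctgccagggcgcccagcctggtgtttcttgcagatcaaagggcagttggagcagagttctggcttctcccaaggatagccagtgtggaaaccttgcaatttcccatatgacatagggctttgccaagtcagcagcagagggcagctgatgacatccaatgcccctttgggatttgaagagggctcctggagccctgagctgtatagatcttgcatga
Col5a1 chr2:27888788-27889087: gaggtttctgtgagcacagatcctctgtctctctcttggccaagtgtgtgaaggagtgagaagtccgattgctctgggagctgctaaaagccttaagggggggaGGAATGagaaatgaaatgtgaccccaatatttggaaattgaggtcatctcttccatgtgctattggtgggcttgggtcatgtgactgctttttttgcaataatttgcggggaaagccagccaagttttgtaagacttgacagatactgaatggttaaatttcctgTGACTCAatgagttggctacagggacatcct
Col4a1 chr8:11270884-11271183: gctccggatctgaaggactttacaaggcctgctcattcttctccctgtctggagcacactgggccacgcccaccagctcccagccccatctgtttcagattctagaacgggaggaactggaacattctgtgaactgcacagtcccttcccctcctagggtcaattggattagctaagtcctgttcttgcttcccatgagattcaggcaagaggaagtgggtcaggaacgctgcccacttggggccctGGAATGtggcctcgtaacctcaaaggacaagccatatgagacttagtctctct
Col4a1 chr8:11273528-11273827: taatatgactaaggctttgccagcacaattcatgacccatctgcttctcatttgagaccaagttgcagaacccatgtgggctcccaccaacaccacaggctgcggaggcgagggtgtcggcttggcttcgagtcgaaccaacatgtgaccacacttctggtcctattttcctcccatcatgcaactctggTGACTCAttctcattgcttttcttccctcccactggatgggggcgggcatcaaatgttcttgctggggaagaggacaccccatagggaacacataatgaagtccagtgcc

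The window of Col24a1 held the TEAD letters at bases 36 to 41. Col5a1 held them at 105 to 110 and the AP-1 letters at 270 to 276. The first window of Col4a1 held the TEAD letters at 248 to 253 and the second the AP-1 letters at 191 to 197. The windows shown for Col27a1 and Col15a1 held neither. Another higher peak of Col27a1, with the window chr4:63310688-63310987 that is not shown, held the TEAD letters at 208 to 213. In 300-base windows at all 189598 peak centers GGAATG was found in 16.45%, at collagen peaks in 21.01% and at the 48 tested collagen peaks in 31.25%. It was in 5 of 7 peaks higher and 4 of 14 lower in beige adipocytes. TGACTCA was found at 8.72% of all and 10.5% of collagen peaks, in 1 of 7 higher and 1 of 14 lower. Also searched were TCAAGGTCA (0.63% of all peaks), 2 copies of AGGTCA set 1 base apart (0.1%), TCCC and GGGA set 2 bases apart (1.5%), TTGCGCAA (0.14%) and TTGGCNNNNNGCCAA (0.07%), of which 0 were in the 21 called peaks.

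Between adipocytes and progenitor clusters only 2 collagen peaks had enough counts, and both were lower in adipocytes, where 18.2% of 1003 peaks were lower and 17.8% higher. They were chr6:4505392-4506583 on Col1a2, at 8.46 against 46.5 CPM (-1.63), and chr8:11273300-11274054 in an intron of Col4a1, at 4.57 against 38.2 CPM (-1.91). With the mouse as a block, 17 collagen peaks were tested and 10 called, and with libraries of at least 30 nuclei 62 were tested, 12 being higher and 30 lower. These fits tested other sets of peaks, and the shares of all peaks called in them are not given here. In VEC no peak passed the filter of the main fit.

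Of 262 collagen peaks with at least 100 counts, 24.81% had their highest mean in APC1 and 17.94% in APC2, against 10.29% and 9.2% of 122988 peaks of the whole matrix. White adipocytes were highest for 17.18% of collagen peaks and 15.88% of all, beige adipocytes for 12.21% and 15.56%, VEC for 11.83% and 11.48%, the VSMC cluster for 9.54% and 13.38% and the immune clusters for 6.49% and 24.21%. These shares are descriptions without a test.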

How the data were processed

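The deposited matrix held counts per the file headers and values, entries of 0 or 1 for a peak and a nucleus, so that 1 count is a nucleus with reads in a peak. The authors had aligned reads to mm10 with Bowtie2, removed poorly mapped, duplicate and mitochondrial reads with SAMtools and Picard, called peaks per initial cluster with MACS2 and merged them. They then removed shallow nuclei and doublets and clustered the nuclei on a Seurat neighbour graph. Clusters were named from differentially accessible genes and peaks, gene ontology, marker genes and motifs. The names were then compared with published single-cell and single-nucleus RNA data. By the paper, neither endothelial nor smooth muscle cells were part of the single-cell data. The paper itself reports mural genes in APC2 and, as smooth muscle markers, Myh4, Myog and Myod1 in VSMC. Binary entries saturate in nuclei with many reads. Mouse, group and cluster of each nucleus came from the deposited annotation. The 4 samples listed by GEO are sequencing lanes, which were not tied to mice, so a lane effect could not be tested. Mice are the replicates.

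Entries were summed over the peaks of a gene (body and 2000 bases upstream) per mouse and cluster, with at least 10 nuclei. Peaks on 2 or more genes (3.427% of peaks) counted for each. Tests were those of edgeR 4.0.16 (R 4.3.3, TMM factors, filterByExpr with a minimum count of 10 and total of 15, robust quasi-likelihood fit, prior count 2), fitted over all genes or peaks with treatment group as a covariate between clusters and adjusted after Benjamini and Hochberg, called at an adjusted p under 0.05. A log2 difference is the coefficient of this fit, with its prior count. It is not the ratio of the unweighted mean CPM printed beside it. A standard error is the log2 difference over the root of F and carries no meaning near a difference of 0. DESeq2 1.42.0 was an alternative. Tables and figures were made with Python 3.11.15, numpy 2.4.6, pandas 2.3.3 and matplotlib 3.10.9. Median counts per nucleus ran from 907 in CD4 T cells to 3087 in beige adipocytes.

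The collagen genes, their classes and the other lists were chosen with earlier results of these data known. Named in any case were the 12 genes given in the report and, among those averaging 20 counts or more in a library, the 5 with the largest called change in each direction. Likewise named were the 5 genes with the highest CPM per kb of peak in each cluster, the 5 most changed peaks and the 3 most changed genes of each other list. Further genes were chosen after their values were seen. The fits were first tested on simulated counts with known changes. The result of 1 gene of the other lists is not reported here.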

Additional observations from a re-analysis of the deposited data

Results flagged for a closer look

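In the VSMC cluster, with 10 libraries, single mice stood far from the others in 5 of the 12 genes that were checked, by the gap to the nearest library over the whole range. Chance flags about 1 in 20 groups, a rate that does not hold for the 4 genes below whose value is 1 count in a library. Col15a1 was at 232.5 CPM in day3C replicate 3 (median 135.1 CPM). The other values were each 1 count with 5 to 9 of the 10 libraries at 0. Col1a2 was at 36.65 CPM in day3CL replicate 1 and 0 in the median library. Col3a1 was at 51.32 CPM in day7CL replicate 3 (median 4.138 CPM). Col6a1 was at 45.78 CPM in day3CL replicate 2 (median 0) and Col6a2 at 53.61 CPM in day1CL replicate 3 (median 4.138 CPM).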

How the results depend on the processing

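Adipocyte tests between groups were limited by depth and by 3 mice per group. For the leave-one-out counts that follow, the shares of all genes or peaks called are not given, so they have no background. Between clusters, leaving out each treatment group in turn gave 14 to 15 collagen genes called for beige against white adipocytes, 13 to 14 for APC1 against APC2, 19 to 20 for adipocytes, 15 to 17 for VEC, 20 to 23 for the VSMC cluster and 22 to 22 for immune clusters against progenitors, 11 (without day7C) to 19 peaks for beige against white adipocytes and 1 to 1 for adipocytes against progenitors. Leaving out each mouse gave 0 to 0 genes in day1C, 0 to 1 in day3C, 0 to 2 in day7C, 0 to 2 in day1CL, 0 to 2 in day3CL, 0 to 4 in day7CL, 0 to 2 for CL against cold and 0 to 0 in progenitors. The 4 in day7CL came without day7CL replicate 3, the 2 in day7C without day7C replicate 3, the 2 in day3CL without day0RT replicate 3 (1 without day3CL replicate 2), and the 2 for CL against cold without day1C replicate 3 or day3C replicate 1 (1 without day1CL replicate 2, day7C replicate 1 or day7CL replicate 2 or 3).

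With promoter peaks only, 3 collagen genes were left between clusters, the others having too few counts there, and the calls were 1 for beige against white adipocytes, 0 for APC1 against APC2 and 3 for each comparison with progenitors. In groups they were 1 in day1CL and 0 in day3C, day7C and day7CL. In white nuclei alone there were 0 calls in day3C, day7C and day1CL and 1 for CL against cold. DESeq2 called 0 genes in day3C, day7C and day7CL and 1 in day1CL, where it gave no adjusted p to Col24a1 in both cold groups and to Col19a1 in day7CL. Without a filter the calls were 32 for adipocytes and 39 for immune clusters against progenitors and 1 in day7CL. VEC had 9 calls in nuclei with at least 2000 counts and 6 with only the compared clusters, an alternative chosen after seeing the data that gave 14 for the VSMC cluster. Peaks reached 42 with libraries of at least 30 nuclei and 10 with the mouse as block for adipocytes against progenitors, and 51 with the mouse as block for beige against white adipocytes, since each of these kept more peaks. The shares of all genes or peaks called under the settings of this paragraph are not given here.

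Replicate numbers were not shown to pair mice, and the study's methods speak of independent batches without tying them to these numbers. Same-numbered mice had a mean correlation of -0.00246 (-0.123 to 0.116 over 63 pairs, 1 over 0.1) and others of 0.00162. With the replicate block the calls were 0 in day3C, 2 in day3CL and 2 for CL against cold. For these fits the shares of all genes called are not given here. For the cluster comparisons, where the mouse pairs libraries, the block ended the call of Col1a1 in beige adipocytes and of both higher peaks of Col18a1 and no other that could be compared.

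With APC1 or APC2 alone as progenitors, also chosen after seeing the data, 6 differences changed sign, none being called there. Against APC1 these were Col13a1 in VEC (0.23) and the VSMC cluster (0.22) and Col25a1 in adipocytes (0.10). Against APC2 they were Col4a2 (-0.002), Col12a1 (-0.002) and Col5a2 (0.10) in adipocytes. Over all alternatives, single called genes stayed past the threshold in the same direction 1757 times and lost it 152 times, and single peaks 190 and 33 times. Scaling moved the share of calls that were higher over all genes, from 43.7% to 56.4% with RLE factors for APC1 against APC2 and from 54.3% to 41.9% for adipocytes against progenitors, where collagen genes were then 11 higher and 4 lower, and 1 and 17. For VEC it moved from 29.8% to 42.3% with DESeq2 (collagens 1 and 15) and for the VSMC cluster from 40.9% to 55.2% (1 and 21). A test of VEC peaks against progenitors could not be fitted with the main settings, where no peak passed the filter. With the mouse as a block 1461 peaks were tested, and 0 of 2 collagen peaks were called by edgeR. With libraries of at least 30 nuclei 699 peaks were tested, and 0 of 1 collagen peak was called. The shares of all peaks called in these fits are not given here. VEC of treated and day0RT mice, in libraries of at least 5 nuclei, gave 0 of 2 collagen genes called by edgeR among 200, with 0 collagens and 13 genes at an unadjusted p under 0.05.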
